A study of Mus musculus with 28 samples.

Results

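Expression of 10 enzyme genes for the breakdown of ethanol and acetate was examined in the amygdala of female mice that drank water only, ethanol once or ethanol repeatedly. The genes were listed by symbol: *Adh5*, *Adh1*, *Cat* and *Cyp2e1* for ethanol oxidation, *Aldh2*, *Aldh1a1*, *Aldh1b1* and *Aldh3a2* for acetaldehyde oxidation, and *Acss1* and *Acss2* for acetate activation. All 10 were among the 49477 gene identifiers present in the count tables of both batches. The test was restricted to 16266 identifiers averaging 10 counts or more per mouse, among them 9 of the 10 enzyme genes, and *Cyp2e1* fell below that minimum.

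Ethanol is oxidized in series, first to acetaldehyde and then to acetate, which is ligated to coenzyme A. The liver does most of this work through alcohol dehydrogenase, cytochrome P450 2E1 and mitochondrial aldehyde dehydrogenase, whereas catalase is regarded as the main ethanol oxidizing enzyme in brain. Acetate reaching the brain from the blood is a fuel for its cells, and acetyl-CoA made from it also feeds histone acetylation.

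The study asked which amygdala transcripts differ after single or repeated voluntary drinking. C57BL/6J females arrived at 7 weeks of age, were housed singly and had a choice of tubes, and a punch holding central and basolateral amygdala was collected on day 29. Water mice (n = 10) received no ethanol, Acute mice (n = 9) met 20% ethanol beside water on day 28 alone, and Chronic mice (n = 9) had the same choice every other day over 28 days. Each mouse gave 1 library, and the mice came in 2 batches of 11 and 17, each with all 3 groups (4 Water, 4 Acute and 3 Chronic mice in the first, and 6, 5 and 6 in the second).

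Total counts ran from 20004380 to 22569562 per mouse. They were higher in Chronic than in Water mice by 0.05 on the log2 scale with batch means removed (two-sided exact permutation test within batches, p = 0.00173). Normalized counts, CPM and fold changes below are scaled to library size, while values given as counts alone are raw. Neuron genes of the central amygdala (*Prkcd* at 458 to 1131 counts, *Tac2* at 212 to 919) and of the basolateral amygdala (*Rspo2* at 440 to 844, *Neurod6* at 1179 to 1957) were present in all 28 mice. Some other genes varied widely between punches: *Ttr*, the transthyretin gene of the choroid plexus, ranged from 5 to 88542 counts, and *Drd2*, a dopamine receptor gene listed for striatal neurons, from 233 to 1784. Whether their reads came from tissue outside the amygdala was not tested. In tissue punches, fewer cells of a type and less RNA per cell cannot be told apart.

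The enzyme genes fell into 3 levels in Water mice. To compare genes, depth-scaled counts (CPM) were divided by the length in kilobases of the union of a gene's exons. *Cat*, *Aldh2* and *Aldh3a2* stood highest, *Acss1*, *Adh5*, *Acss2*, *Aldh1b1* and *Aldh1a1* were intermediate, and *Adh1* and *Cyp2e1* were close to 0. The median of the 16266 tested genes was 4.04 CPM per kb on this scale.

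*Cat*, encoding the peroxisomal enzyme catalase that can oxidize ethanol with hydrogen peroxide, led with 16.2 ± 2.17 CPM per kb (SD, n = 10). *Aldh2*, encoding the mitochondrial enzyme regarded as the chief remover of acetaldehyde, followed with 13.4 ± 1.68. *Aldh3a2*, encoding a fatty aldehyde dehydrogenase of the endoplasmic reticulum, reached 10.5 ± 0.448. The ranges of *Cat* (14.2 to 19.9) and *Aldh2* (11.4 to 15.9) overlapped across Water mice, but within each of the 10 mice *Cat* was above *Aldh2*, and every mouse had less *Aldh3a2* (9.69 to 11.2) than the lowest *Aldh2* value.

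The mitochondrial acetyl-CoA synthetase gene *Acss1* had a level of 6.59 ± 0.763 CPM per kb and *Adh5*, the alcohol dehydrogenase known mainly for clearing formaldehyde bound to glutathione, 6.31 ± 0.675. *Acss2*, encoding the cytosolic and nuclear acetyl-CoA synthetase, had 4.06 ± 0.159, and the mitochondrial aldehyde dehydrogenase gene *Aldh1b1* had 3.77 ± 0.486. *Aldh1a1*, encoding a cytosolic enzyme that oxidizes retinaldehyde as well as acetaldehyde, had 2.86 ± 0.959. Of the 9 pairs of neighbours in the order of levels, 5 overlapped in range, including *Acss1* with *Adh5* and *Acss2* with *Aldh1b1*, and *Acss2* lay below *Adh5* without overlap. *Acss1* was above *Adh5* in 7 and *Acss2* above *Aldh1b1* in 6 of the 10 Water mice, so these neighbours had no fixed order.

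*Adh1*, the main ethanol oxidizing alcohol dehydrogenase of liver, had a level of 0.245 ± 0.205 CPM per kb, below all but 5.1% of the tested genes. *Cyp2e1*, the ethanol-inducible cytochrome P450, had 0.0604 ± 0.0581. *Adh1* was above *Cyp2e1* in 6 of the 10 Water mice, and their ranges overlapped (0.0461 to 0.659 for *Adh1* and 0 to 0.191 for *Cyp2e1*). The hepatocyte genes *Alb*, *Serpina1c*, *Fgb* and *Cyp2c29* had means of at most 0.964 counts over all mice, and the apolipoprotein genes *Apoa1* and *Apoa2* of the same list 5.61 and 6.61.

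**Figure D1:**
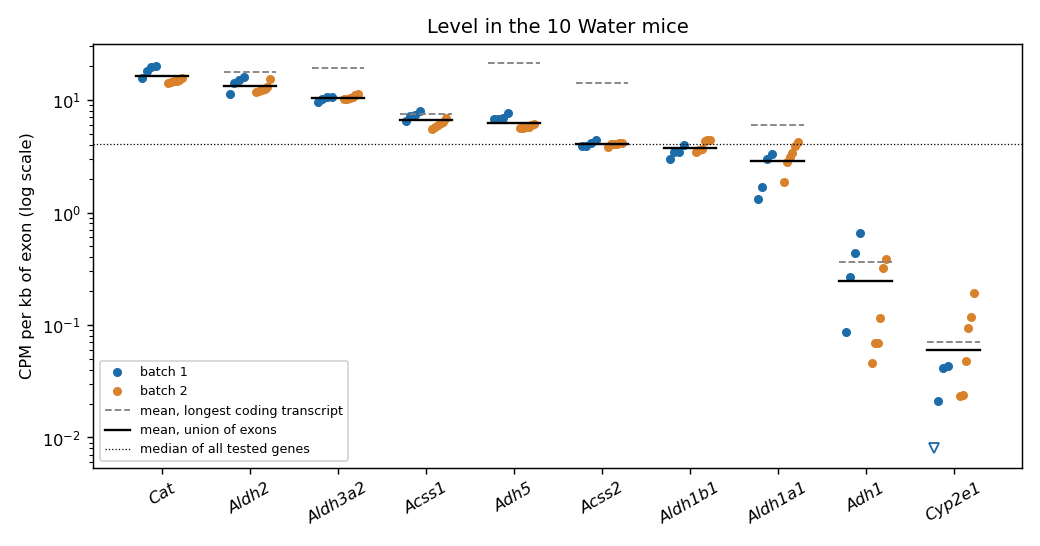
Level of each enzyme gene in the 10 Water mice, in CPM per kb of exon on a log axis; points are mice coloured by batch, solid lines are means over the union of exons, dashed lines the means when divided by the longest protein-coding transcript, the dotted line is the median of all tested genes, and the open triangle marks the 1 mouse with no *Cyp2e1* count. *Cat*, *Aldh2* and *Aldh3a2* lie above the other genes on the exon scale, and *Adh1* and *Cyp2e1* lie far below them.

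This order depended on the length used. With the longest protein-coding transcript in place of all exons, a choice made after the data were seen, *Adh5* came first at 21.3 CPM per kb, ahead of *Aldh3a2* at 19.1, *Aldh2* at 17.8 and *Cat* at 16.2. *Acss2* moved to 14.1 and *Aldh1a1* to 5.98, while *Adh1* at 0.367 and *Cyp2e1* at 0.0712 stayed last. Much of the exon union of *Adh5* (5408 bases against 1604 in its longest coding transcript) and of *Acss2* (10163 against 2931) thus lies outside that transcript.

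The alcohol dehydrogenase genes *Adh5* and *Adh1* lie on chromosome 3 (GRCm38, plus strand), *Adh1* at 138260991 to 138290698 and *Adh5* at 138443093 to 138455499, and *Cyp2e1* lies on chromosome 7 at 140763739 to 140774987. On the same build, *Cat* (2:103453849-103485160), *Acss1* (2:150618105-150668500) and *Acss2* (2:155517948-155585724) lie on chromosome 2, *Aldh1b1* on chromosome 4 (4:45799022-45804604), *Aldh2* on chromosome 5 (5:121566027-121593824), *Aldh3a2* on chromosome 11 (11:61223417-61267464) and *Aldh1a1* on chromosome 19 (19:20492715-20643465). *Aldh1b1* has its whole coding sequence in 1 exon, whereas *Aldh2*, *Aldh1a1* and *Aldh3a2* have theirs in 13. The promoter windows of *Adh5*, *Adh1* and *Cyp2e1*, 250 bases before to 50 after a RefSeq start on GRCm38.p6, are shown because *Adh5* is expressed throughout these samples and *Adh1* and *Cyp2e1* are close to 0. Capitals mark CG dinucleotides.
Adh5, chr3:138442843-138443142: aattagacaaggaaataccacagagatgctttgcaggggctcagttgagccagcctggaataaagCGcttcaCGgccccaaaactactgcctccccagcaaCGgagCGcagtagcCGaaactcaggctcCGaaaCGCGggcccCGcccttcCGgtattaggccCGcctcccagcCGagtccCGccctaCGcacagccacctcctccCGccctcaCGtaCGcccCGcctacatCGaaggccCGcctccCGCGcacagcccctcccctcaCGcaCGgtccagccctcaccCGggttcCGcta
Adh1, chr3:138277335-138277634: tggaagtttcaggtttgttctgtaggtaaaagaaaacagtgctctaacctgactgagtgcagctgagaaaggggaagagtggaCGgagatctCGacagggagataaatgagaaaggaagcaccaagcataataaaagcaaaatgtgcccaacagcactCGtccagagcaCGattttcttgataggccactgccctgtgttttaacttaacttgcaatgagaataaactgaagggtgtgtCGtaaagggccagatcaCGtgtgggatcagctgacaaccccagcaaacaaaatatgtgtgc
Cyp2e1, chr7:140763569-140763868: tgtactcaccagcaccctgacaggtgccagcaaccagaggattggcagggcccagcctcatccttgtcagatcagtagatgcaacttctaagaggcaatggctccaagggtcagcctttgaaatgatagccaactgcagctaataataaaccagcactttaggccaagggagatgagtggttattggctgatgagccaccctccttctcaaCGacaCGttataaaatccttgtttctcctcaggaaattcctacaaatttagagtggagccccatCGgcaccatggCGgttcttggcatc
The *Adh5* window holds 26 CG dinucleotides, a number that 16.9% of all 32817 promoter windows of this length reach. The *Adh1* window has 6 and the *Cyp2e1* window has 4, against a median of 7 over all windows. A second *Adh5* start at chr3:138436950-138437249 has 3. Among the other enzyme genes with a window, *Acss1* has 23, *Aldh3a2* 21, *Acss2* 20, *Cat* 11 and *Aldh1b1* 7, and the windows of the expressed gene *Aldh1a1* have 3 and 1, so the number did not follow the level in all of them. The letters TATAAA, searched on both strands, are present once in the *Cyp2e1* window, once in the second *Adh5* window and in 13.6% of all windows, and are in neither the *Adh5* nor the *Adh1* window shown.

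None of the 9 tested enzyme genes was called between drinking groups. In the edgeR quasi-likelihood test, which included batch, 0 of 9 were called at an adjusted p under 0.05 in Acute against Water mice, where 0% of all tested genes were called. For Chronic against Water mice 0 of 9 were called beside 0.0184% of all genes, and for Chronic against Acute mice 0 of 9 beside 0%. At an unadjusted p under 0.05 the counts of enzyme genes were also 0 in each comparison, beside 9.52%, 10.5% and 4.44% of all tested genes. Both comparisons with Water used the same 10 Water mice.

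Adjusted p-values of the enzyme genes from edgeR were at least 0.704 for Acute, at least 0.789 for Chronic and at least 0.998 between the drinking groups. Their median log2 fold changes were 0, 0.006 and -0.001, beside medians of 0.001, 0.002 and -0.0009 over all tested genes. The estimate was above 0 for 4 of 9 enzyme genes in Acute and 7 of 9 in Chronic against Water, beside 50.6% and 51% of all tested genes, and for 4 of 9 in Chronic against Acute, beside 49.4%. Within batches the drinking groups overlapped the group they were compared with for each of the 9 genes. The share of all tested genes with such overlap was not counted, so this describes the values only.

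**Figure D2:**
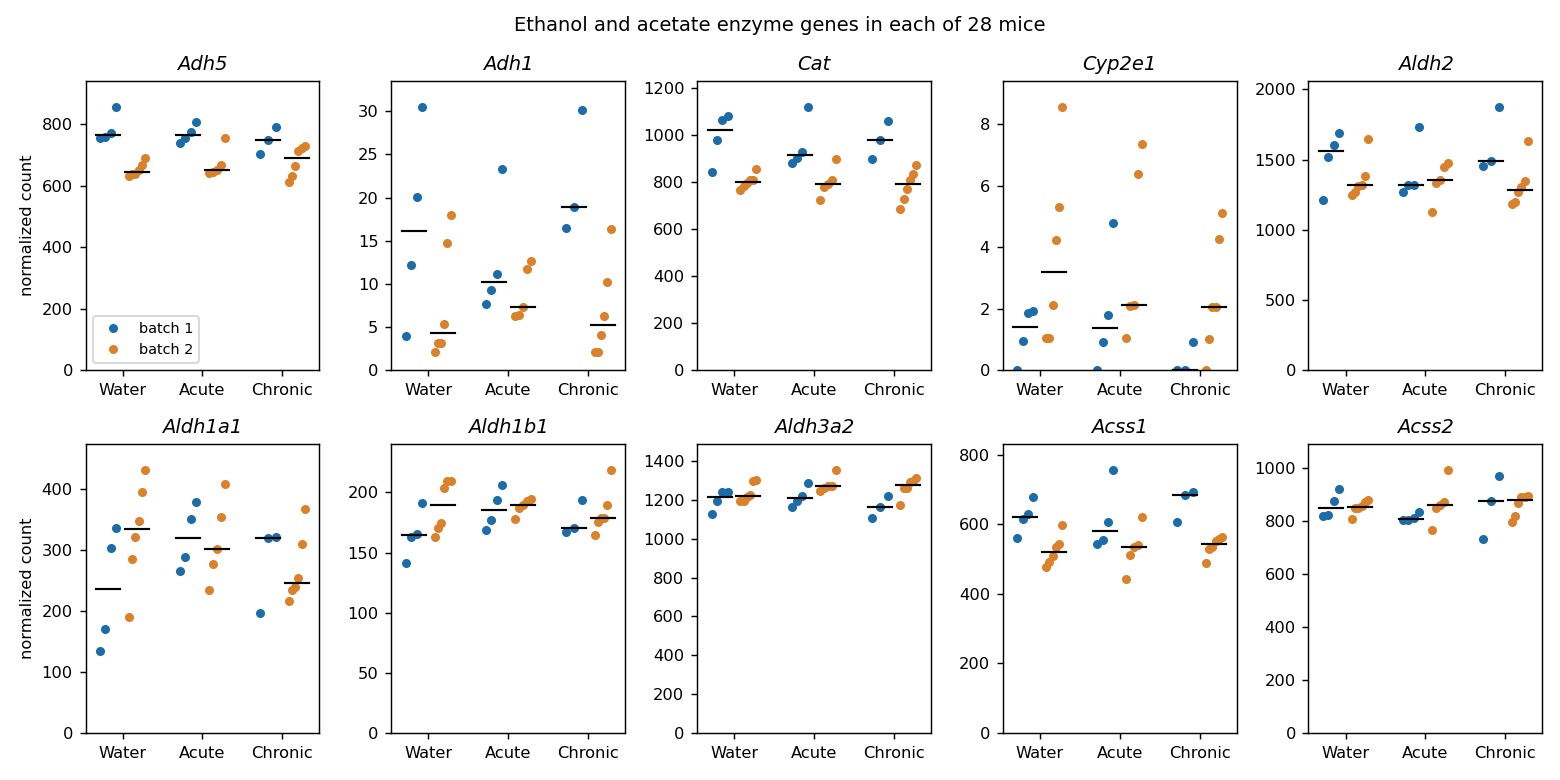
Normalized counts of the 10 enzyme genes in each of the 28 mice, by drinking group and coloured by batch; points are mice, black lines are medians within group and batch, and each vertical axis starts at 0. Drinking groups overlap within batches in every panel, *Adh5*, *Cat* and *Acss1* are lower in the second batch, and *Adh1* and *Aldh1a1* vary most between mice among the 9 tested enzyme genes.

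Of the ethanol oxidizing enzymes, *Adh5* was measured most closely. Its normalized count had a lowest, median and highest value of 633, 678 and 855 in Water mice, 640, 738 and 809 in Acute mice and 613, 714 and 792 in Chronic mice. The 3 ranges nearly coincided. With batch removed, the difference from Water was 0.784% for Acute mice (95% confidence interval -4.75 to 6.63%) and 0.693% for Chronic mice (-4.85 to 6.55%).

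*Cat* had a lowest, median and highest normalized count of 766, 826 and 1078 in Water mice, 724, 879 and 1116 in Acute mice and 685, 834 and 1057 in Chronic mice. Mice of all groups spread over the same range. The differences from Water were -1.81% for Acute (-8.83 to 5.75%) and -2.1% for Chronic mice (-9.11 to 5.45%), with 6 of 9 Acute and 5 of 9 Chronic mice below the Water mean of their batch.

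*Adh1* was scarce and varied widely between mice. Its raw counts ran from 2 to 33 in Water mice with a median of 9, from 6 to 26 in Acute mice with a median of 10, and from 2 to 33 in Chronic mice with a median of 10. High and low mice occurred in each group. The interval around the change reached from -47 to 61.5% for Acute and from -37.9 to 85.2% for Chronic mice, so a change of moderate size was not detectable in these mice. *Adh1* shares 136 bases of exon with Gm16559 on the opposite strand, and reads there could belong to either gene, since whether the counting used strand is not given in the sources used here.

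*Cyp2e1* had between 0 and 8 counts in Water mice (26 in all 10 together), between 0 and 7 in Acute mice (26 in 9) and between 0 and 5 in Chronic mice (15 in 9). It was at 0 in 1 Water, 1 Acute and 3 Chronic mice, and a count of 0 allows up to 3 (counting error only). With no filter on low counts, edgeR gave it an adjusted p of 0.948 for Acute, 0.703 for Chronic and 0.819 for Chronic against Acute mice. No induction by drinking was detectable, and the log2 fold change was 0.23 (95% interval -0.84 to 1.302) for Acute and -0.74 (-1.9 to 0.42) for Chronic mice against Water, and -0.97 (-2.149 to 0.206) for Chronic against Acute mice.

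Among the acetaldehyde dehydrogenases, *Aldh2* had a lowest, median and highest normalized count of 1211, 1351 and 1692 in Water mice, 1125, 1333 and 1731 in Acute mice and 1185, 1351 and 1873 in Chronic mice. The medians lay within a few percent of each other and the ranges overlapped almost wholly. Acute mice differed from Water mice by -3.58% (-13.4 to 7.38%) and Chronic mice by 0.384% (-9.85 to 11.8%). *Aldh2* shares 130 bases of exon with Gm42879 on the opposite strand.

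*Aldh3a2* was the steadiest of the enzyme genes. Its lowest, median and highest normalized counts were 1127, 1220 and 1305 in Water mice, 1162, 1260 and 1354 in Acute mice and 1108, 1259 and 1315 in Chronic mice. In Acute mice it was 2.58% above Water, with an interval of -1.59 to 6.93%, and 7 of 9 mice lay above the Water mean of their batch (edgeR adjusted p = 0.704; two-sided exact permutation test over 32340 regroupings within batches, p = 0.179). In Chronic mice the difference was 0.304% (-3.79 to 4.57%).

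*Aldh1a1* had the largest fitted differences among the enzyme genes with over 100 counts. Its normalized count had a lowest, median and highest value of 135, 312 and 432 in Water mice, 234, 302 and 410 in Acute mice and 196, 254 and 368 in Chronic mice. The Water mice covered a wider range than both drinking groups. Acute mice lay 10.5% above Water mice (-12.5 to 39.6%), Chronic mice 6% below them (-25.7 to 18.9% on the signed scale) and Chronic mice 14.9% below Acute mice (-33.1 to 8.17%), with edgeR adjusted p-values of 0.815, 0.892 and 0.998.

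Against Water, the estimates of the batches had opposite signs for *Aldh1a1*. In the first batch the log2 difference from Water was 0.44 for Acute and 0.25 for Chronic mice, and in the second batch it was -0.06 and -0.28. Chronic mice lay below Acute mice in both batches, by -0.20 and -0.22. The batch by group interaction was not called (edgeR adjusted p = 0.999 for Acute and 0.855 for Chronic), nor was it for any of the 9 enzyme genes, beside 0% of all tested genes for Acute and 0.00615% for Chronic. In the first batch the 4 Water mice had normalized counts of 135, 171, 303 and 336, the Acute mice 266, 289, 351 and 379, and the Chronic mice 196, 320 and 322. Over both batches the Acute difference of 0.14 fell to 0.05 or 0.08 on the log2 scale when one or the other of the 2 lowest Water mice of the first batch was left out. The Chronic difference of -0.089 was -0.172 without Water replicate 43 and -0.016 without Water replicate 1. *Aldh1a7*, a near copy of *Aldh1a1* in the mouse genome, could exchange reads with it and had a mean of 12.7 counts.

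*Aldh1b1* had a lowest, median and highest normalized count of 141, 172 and 209 in Water mice, 169, 189 and 206 in Acute mice and 164, 179 and 219 in Chronic mice. In Acute mice 7 of 9 lay above the Water mean of their batch. The difference was 5.17% for Acute (-4.16 to 15.4%) and 1.24% for Chronic mice (-7.75 to 11.1%), and the groups overlapped. The log2 fold change for Acute mice was 0.073, which fell to 0.04 without Water replicate 43 and was 0.17 in the first and -0.002 in the second batch alone.

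Of the acetate activating enzymes, *Acss1* had a lowest, median and highest normalized count of 476, 552 and 678 in Water mice, 443, 544 and 756 in Acute mice and 489, 557 and 693 in Chronic mice. Chronic mice were 3.82% above Water (-4.58 to 12.9%), with 7 of 9 above the Water mean of their batch (edgeR adjusted p = 0.789; two-sided exact permutation test, p = 0.237). The Acute interval ran from -8.15 to 8.86% around a difference close to 0. *Acss1* shares 113 bases of exon with E130215H24Rik on the opposite strand.

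*Acss2* had a lowest, median and highest normalized count of 808, 852 and 921 in Water mice, 765, 834 and 991 in Acute mice and 731, 875 and 969 in Chronic mice. The highest Acute mouse was in the second batch, and the ranges of the groups overlapped. The differences from Water were -1.41% (-7.4 to 4.97%) and 0.33% (-5.77 to 6.82%). On the log2 scale the Acute difference was -0.02, and it was -0.053 without Acute replicate 5 and -0.004 without Acute replicate 4. The exons of *Acss2* overlap *Acss2os*, *Ggt7* and *Gss* on the opposite strand by 335, 197 and 395 bases.

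**Figure D3:**
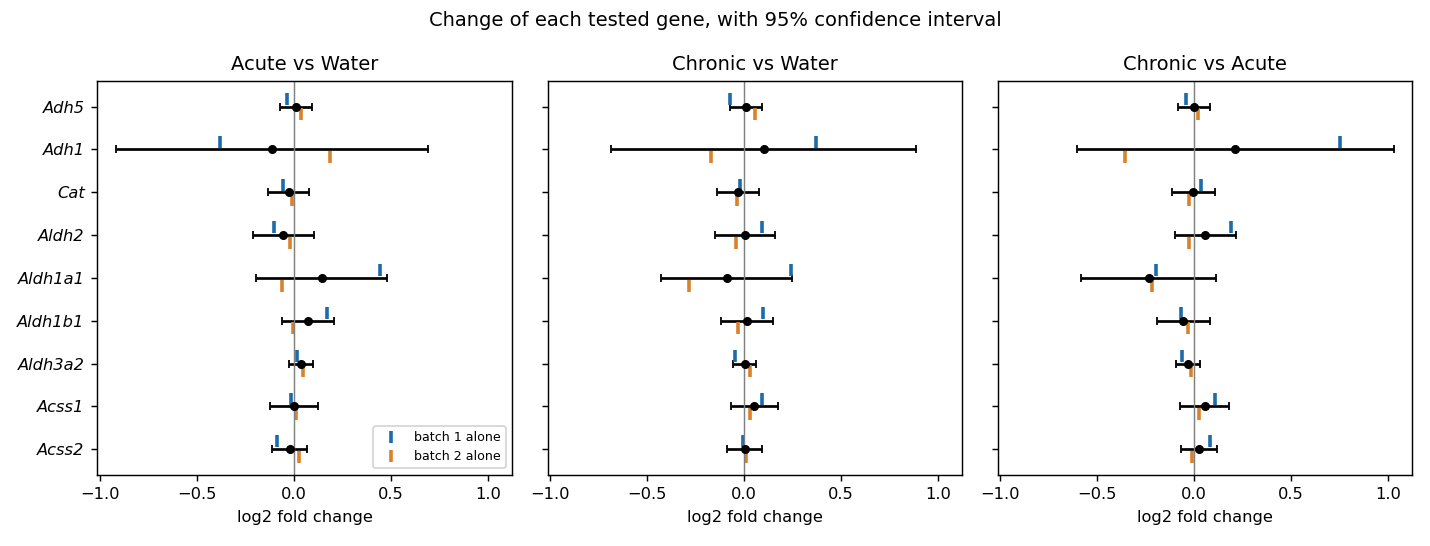
Log2 fold change of each tested enzyme gene in the 3 comparisons; black points are edgeR estimates with batch as a covariate, bars are 95% confidence intervals, and coloured ticks are the estimates of each batch alone. Every interval includes 0, the narrowest is that of *Aldh3a2* and the widest that of *Adh1*.

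The wider pathway gave the same count. Of 61 further genes listed for ethanol, acetaldehyde, acetate and NADH metabolism, 49 were tested and 0 were called in any comparison. In Acute against Water mice 7 of the 49 had an unadjusted p under 0.05 with a higher level and 0 with a lower one, beside 5.07% and 4.45% of all tested genes. In Chronic against Water mice these counts were 1 and 0 (beside 4.81% and 5.65%), and between Chronic and Acute mice 0 and 1 (beside 1.95% and 2.5%).

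The NADH shuttle and lactate genes held 3 of those 7. *Slc25a12*, the mitochondrial aspartate-glutamate carrier that helps bring the electrons of NADH into mitochondria, had a log2 fold change of 0.09 in Acute mice (3530 ± 181 normalized counts, n = 9, against 3327 ± 223 in Water, n = 10; edgeR adjusted p = 0.384) and of 0.06 in Chronic mice (3490 ± 145; edgeR adjusted p = 0.426). *Ldhb*, a lactate dehydrogenase subunit, had 0.11 in Acute mice (edgeR adjusted p = 0.43), and *Mdh1*, the cytosolic malate dehydrogenase, 0.08 (edgeR adjusted p = 0.468). None of these passed the adjusted threshold.

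Of 16 other aldehyde dehydrogenases 12 were tested, and *Aldh1l1*, the astrocytic folate enzyme, had the smallest p, with 848 ± 108 normalized counts in Acute (n = 9) against 773 ± 82.8 in Water mice (n = 10) and an edgeR adjusted p of 0.469. None of the 4 other alcohol dehydrogenases reached the minimum count. All 5 monocarboxylate transport genes were tested (4 transporters of the family that carries lactate and acetate, and their accessory protein gene *Bsg*), and *Slc16a7* had the smallest p in both comparisons with Water, at log2 fold changes of -0.09 in each (edgeR adjusted p = 0.59 and 0.585). The remaining genes of the 7 in Acute mice were *Pdhb*, a pyruvate dehydrogenase subunit, at a log2 fold change of 0.06, *Por*, the electron donor of cytochromes P450, at 0.08, and *Sult1a1*, a sulfotransferase, at 0.31 (edgeR adjusted p = 0.467, 0.491 and 0.498). *Aldh1a7*, second among the other aldehyde dehydrogenases, had a log2 fold change of 0.43 in Acute mice (14.7 ± 4.62 normalized counts, n = 9, against 10.9 ± 3.34 in Water, n = 10; edgeR adjusted p = 0.532). *Cs*, *Pex7*, *Pld1* and *Slc16a3*, next in their lists, had log2 fold changes of 0.04, 0.04, 0.06 and -0.20 in Acute mice. In Chronic mice the genes with the smallest p in these lists included *Aldh1a2* at 0.30, *Pld1* at 0.14, *Cyb5r3* at 0.07, *Por* at 0.06, *Got2* at 0.04, *Pdhx* at -0.03, *Acot8* at -0.06 and *Sult1a1* at -0.10, none with an unadjusted p under 0.05. *Sult1a1* was the gene counted between the drinking groups, with 74.2 ± 9.99 normalized counts in Chronic (n = 9) against 100.1 ± 23.9 in Acute mice (n = 9; edgeR adjusted p = 0.998).

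Mouse-to-mouse variation within group and batch differed widely between the enzyme genes. The SD of log2 CPM was 0.06 for *Aldh3a2*, smaller than in all but 4.71% of the tested genes, and 0.08 for *Adh5*. It was 0.39 for *Aldh1a1*, larger than in 88.4% of the tested genes, and 0.79 for *Adh1*, larger than in 98%, beside a median of 0.14. For *Adh1*, a gene with few counts, this SD includes counting error, which was not separated. With batch means removed, the highest mouse exceeded the lowest 1.16-fold for *Aldh3a2* and 2.86-fold for *Aldh1a1*.

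The batches differed for 6 of the 9 enzyme genes, beside 46.2% of all tested genes (edgeR, adjusted p under 0.05). In the second batch *Adh1* was lower by a log2 difference of -1.10, *Cat* by -0.29, *Acss1* by -0.25, *Adh5* by -0.20 and *Aldh2* by -0.16, whereas *Aldh3a2* was higher by 0.08. *Aldh1a1*, *Aldh1b1* and *Acss2* were not called.

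The levels of the enzyme genes were also set against cell type markers from mouse to mouse. Scores for 9 marker lists were compared with the 9 enzyme genes over the 28 mice with batch means removed, and 23 of the 81 relations had an adjusted p under 0.05 (permutation of mice within batches, two-sided, Benjamini-Hochberg adjusted over the 81). Such relations were common in these samples: 8 of the 9 enzyme genes, beside 50.5% of all tested genes, had a correlation of at least 0.429 in size with 1 or more scores, the smallest size among the 23. Correlations of that size made up 34.6% of the 81 relations and 11.5% of those of all tested genes. Each of the 23 was reached in size by between 0.676% and 11.6% of all tested genes. None of the scores differed between drinking groups over 27 comparisons (exact permutation test within batches, adjusted p of at least 0.872). The smallest unadjusted p was that of the neuron score, higher by 0.05 in Acute than in Water mice (exact permutation p = 0.0323).

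*Aldh2*, *Cat*, *Adh1* and *Acss1* were higher in mice with higher scores of border tissues. For the meningeal and perivascular fibroblast score, Pearson's r was 0.79 with *Aldh2* (Spearman's rho 0.70, permutation p = 1e-05 for r and 0.00011 for rho, the former the smallest the permutations can give, adjusted p = 0.00027). It was 0.72 without the 2 mice farthest from the median score, 0.81 in the first and 0.78 in the second batch. Of all tested genes, 1.06% had a correlation of at least this size with that score. For *Adh1* r was 0.76 (rho 0.75, permutation p = 1e-05 and 2e-05, adjusted p = 0.00027; 0.70 without the 2 mice; 0.89 and 0.68 within batches), for *Cat* 0.65 (rho 0.57, permutation p = 0.00035 and 0.00289, adjusted p = 0.00472; 0.59 without the 2 mice; 0.75 and 0.57 within batches) and for *Acss1* 0.57 (rho 0.55, permutation p = 0.00226 and 0.00438, adjusted p = 0.0166; 0.49 without the 2 mice; 0.66 and 0.50 within batches).

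For the choroid plexus and ependyma score r was 0.765 with *Adh1* (rho 0.80, permutation p = 1e-05 for each, adjusted p = 0.00027; 0.72 without the 2 mice; 0.91 and 0.77 within batches) and 0.65 with *Aldh2* (rho 0.70, permutation p = 4e-05 and 3e-05, adjusted p = 0.000648; 0.65 without the 2 mice; 0.96 and 0.64 within batches). With the same score r was 0.50 for *Acss1*, 0.48 for *Cat* and 0.43 for *Acss2* (adjusted permutation p = 0.0239, 0.0246 and 0.0418). Without the 2 mice these were 0.54, 0.54 and 0.51. Within batches they were 0.87 and 0.43, 0.92 and 0.39, and 0.43 and 0.50. All 10 genes of this list were scored, and the mean log2 CPM of the list ran from 0.106 to 5.29 over Water mice. After removal of batch means the score ran from -2.03 to 2.41 in Water, -1.90 to 2.04 in Acute and -2.27 to 2.24 in Chronic mice, so the groups covered the same span. Whether the content of such tissue in a punch sets the level of these genes was not tested. *Adh1* was lower in mice with higher neuron scores (r = -0.48, rho -0.49, permutation p = 0.0105 and 0.00916, adjusted p = 0.0418; -0.50 without the 2 mice; -0.35 and -0.63 within batches), a size that 9.93% of all tested genes reached. It was also lower with higher microglia scores (r = -0.51, rho -0.53, permutation p = 0.00689 and 0.00531, adjusted p = 0.0322; -0.52 without the 2 mice; -0.53 and -0.52 within batches). *Acss2* was lower in mice with higher OPC scores (r = -0.53, adjusted permutation p = 0.0322), and r was -0.36 without the 2 mice. *Adh5* had no relation with an adjusted p under 0.05.

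*Aldh1a1* varied in the opposite sense. It correlated with the oligodendrocyte score at r = 0.76 (rho 0.77, permutation p = 2e-05 and 3e-05, adjusted p = 0.000405; 0.68 without the 2 mice; 0.83 and 0.67 within batches) and with the choroid plexus and ependyma score at r = -0.53 (rho -0.56, permutation p = 0.00138 and 0.00174, adjusted p = 0.0112; -0.45 without the 2 mice; -0.44 and -0.66 within batches). *Aldh1b1* likewise correlated with the oligodendrocyte score (r = 0.65, rho 0.59, permutation p = 0.00051 and 0.00144, adjusted p = 0.00587; 0.54 without the 2 mice; 0.73 and 0.56 within batches). The astrocyte score correlated with *Aldh2* at r = 0.60 (rho 0.64, permutation p = 0.00085 and 0.00031, adjusted p = 0.00765; 0.50 without the 2 mice; 0.77 and 0.48 within batches). The same astrocyte score correlated with *Cat* at r = 0.53 (rho 0.58, permutation p = 0.00334 and 0.00145, adjusted p = 0.0225). It was 0.40 without the 2 mice and 0.66 and 0.45 within batches. *Aldh3a2* correlated with the neuron score at r = 0.52 (rho 0.39, permutation p = 0.00716 and 0.0509, adjusted p = 0.0322), a relation that fell to 0.35 without the 2 mice and was 0.74 and 0.28 within batches. The oligodendrocyte score was not the only one that rose with *Aldh1a1*. The microglia, endothelial, OPC (oligodendrocyte precursor) and pericyte scores had r of 0.58, 0.54, 0.51 and 0.49 with it. Their adjusted permutation p-values were 0.00587, 0.0322, 0.0362 and 0.0418. Without the 2 mice farthest from the median score these r were 0.584, 0.28, 0.255 and 0.427. *Aldh1a1* is also known from dopaminergic neurons. Of that cell type's list, *Ddc* had a mean of 314.3 counts, *Th* 43.3, *Slc6a3* 9.57, *Pitx3* 0.25 and *En1* 0.143, and their part in the *Aldh1a1* level was not tested.

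**Figure D4:**
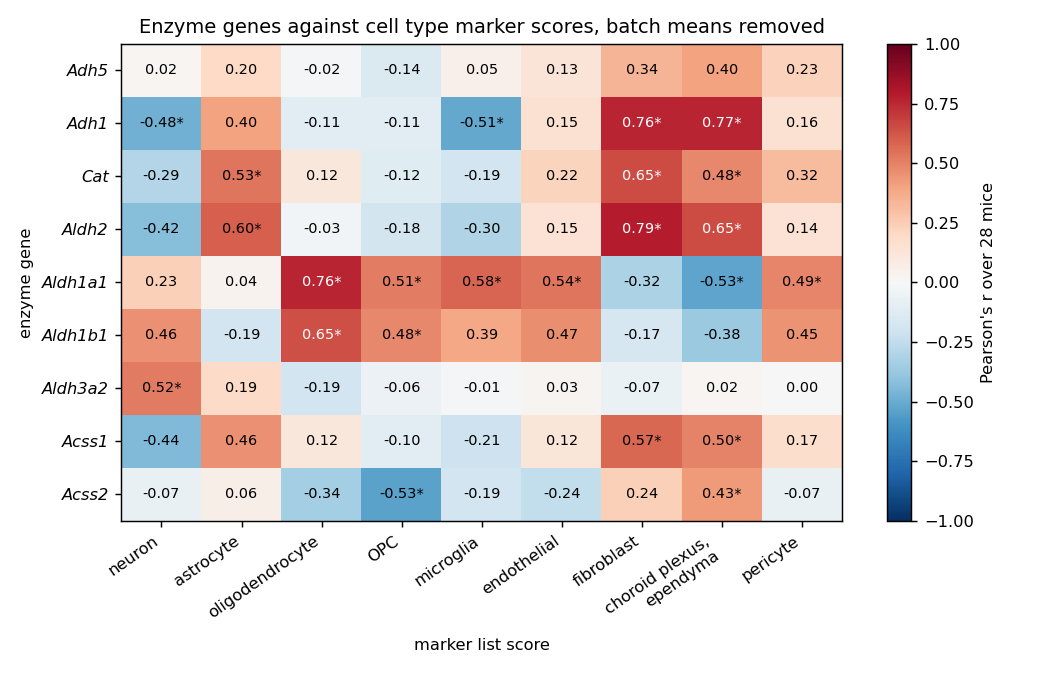
Pearson's r over 28 mice, batch means removed, between each tested enzyme gene (vertical axis) and each cell type marker score (horizontal axis); an asterisk marks an adjusted permutation p under 0.05. *Adh1*, *Cat*, *Aldh2* and *Acss1* are positive with the fibroblast and choroid plexus scores, *Aldh1a1* and *Aldh1b1* with the oligodendrocyte score, and *Adh5* has no asterisk. *Aldh1a1* is also positive, with an asterisk, for the OPC, microglia, endothelial and pericyte scores.

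The single genes most like each enzyme gene were sought among 11723 genes averaging 100 counts or more, by r over the 28 mice, as a description. *Aldh1a1* was most like *Chst15* (r = 0.92), the orphan receptor gene *Gpr6* (0.91) and *Penk* (0.90), which encodes the enkephalin precursor. All 8 genes listed for striatal neurons and looked up after this result was seen, among them *Drd2* (0.87), *Rgs9* (0.88) and *Adora2a* (0.86), had r between 0.80 and 0.90 with *Aldh1a1*. Whether these genes mark striatal tissue in the punches was not tested. The 2 Water mice of the first batch with the lowest *Aldh1a1* (log2 -0.97 and -0.64 against the batch mean) were also the lowest of all 28 in *Penk* (-1.42 and -1.10).

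*Aldh2* was most like *Fxyd1* (r = 0.92), *Hspb8* (0.92) and *Perp* (0.91), and *Cat* most like *Lrp10* (0.87), *Aldh2* (0.85) and *Perp* (0.83). *Adh1* was most like *Crb2* (0.91), *Ace* (0.88), the angiotensin-converting enzyme, and *Bmp7* (0.88). *Adh5* was most like *Coq7* (0.74), an enzyme of ubiquinone synthesis, *Apoo* (0.72) and *Vps25* (0.71). *Aldh3a2* was most like *Dnajc7* (0.77), *Srp72* (0.735) and *Tcp1* (0.71), and *Aldh1b1* most like *Hs3st5* (0.84), *Hmgb3* (0.77) and *Rtkn* (0.76). *Acss1* was most like *Myo7a* (0.775), *Lamp2* (0.77) and *Gstcd* (0.74), and *Acss2* most like *Slc25a16* (0.77), *Tmem30a* (0.75) and *Gpm6a* (0.73). All these values share the same libraries and scaling.

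**Figure D5:**
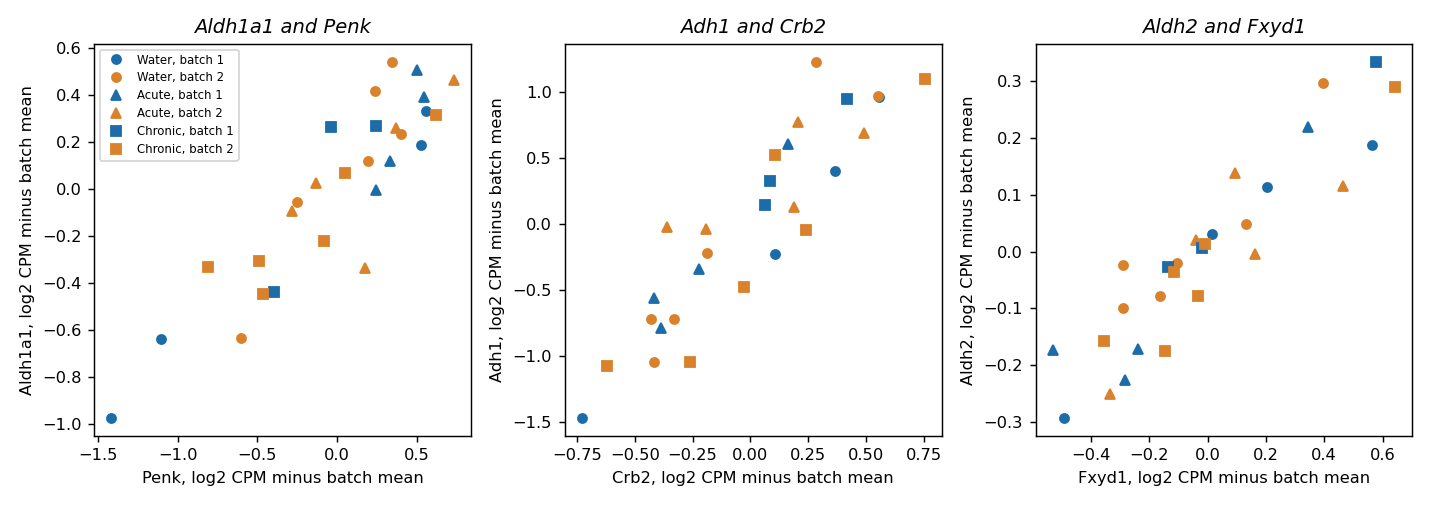
*Aldh1a1* against *Penk*, *Adh1* against *Crb2* and *Aldh2* against *Fxyd1* in 28 mice, each axis in log2 CPM minus the batch mean; symbols are drinking groups and colours are batches. In each panel (r = 0.90, 0.91 and 0.92) the 3 drinking groups are mixed along the trend.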

How the data were processed

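RNA-seq libraries of amygdala punches from 28 mice were analysed. The authors quantified reads with Salmon 0.14.1 against a GRCm38 transcriptome, used tximport to sum transcripts to GENCODE genes. The deposited values are whole-number counts, 1 table per batch, not adjusted for batch. Condition and batch came from the sample titles. The tables were joined by gene identifier, and genes averaging under 10 counts were dropped. Tests used edgeR 4.0.16 in R 4.3.3 (TMM, quasi-likelihood, group plus batch, Benjamini-Hochberg over 16266 genes, threshold 0.05), and the fitting was tested on simulated data. Normalized counts are counts scaled by TMM library size; log2 CPM used a prior count of 2. Total counts of 20004380 to 22569562 set the counting error. No pair of libraries within a group and batch was a duplicate (55 pairs). The replicates were separate mice.

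The members, pathway lists and marker lists were chosen with earlier results of these data known. Named genes were the 10 enzymes, in each pathway list and comparison with Water the 2 genes with the smallest p, and the 3 genes most like each enzyme gene. The striatal and amygdala genes and *Ttr* were named after values were seen. The dopaminergic list had too few detected genes for a score (2 of 6) and the hepatocyte list had none. Correlations used 100000 permutations. Alternatives used DESeq2 1.42.0, ComBat-seq from sva 3.50.0, other scalings, filters and offsets, single batches and leaving out each mouse.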

Additional observations from a re-analysis of the deposited data

Results flagged for a closer look

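The 9 tested genes in 3 groups gave 27 sets of mice, and in 1 of them a mouse stood apart from the rest by the gap to its nearest neighbour; chance alone marks about 1 in 20 such sets. In Acute mouse 5 of the second batch *Acss2* had a normalized count of 991.4, while the other 4 Acute mice of that batch had 765, 849, 858 and 873.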

How the results depend on the processing

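In each of the 12 other settings, and whichever mouse was omitted, 0 of the enzyme genes were called, and their smallest adjusted p was 0.497. *Adh1* could not be called at a minimum mean of 100 counts, where it was not fitted, and DESeq2 gave no adjusted p against Water for *Adh1*, nor in Chronic mice for *Aldh1b1* and, after ComBat-seq, *Aldh1a1*. Marker scores were computed again with RLE size factors, with markers averaging 100 counts or more and with each mouse omitted, and 0 were called. Genes called over the whole table were more variable: against 0 for Acute and 3 for Chronic against Water, DESeq2 gave 8 and 36, ComBat-seq followed by DESeq2 30 and 88, no filter 1 and 4, the first batch alone 0 and 0, and GC content and length offsets 0 and 1; no filter gave 1 for Chronic against Acute. With a mouse left out the ranges were 0 to 2 and 2 to 6. The cause was not tested.

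Signs of the small log2 fold changes were not stable. In the first batch alone they turned to -0.032 for *Adh5* in Acute against Water, to -0.072 for *Adh5*, 0.245 for *Aldh1a1*, -0.044 for *Aldh3a2* and -0.003 for *Acss2* in Chronic against Water, and to 0.033 for *Cat* in Chronic against Acute. In the second batch alone they turned to 0.186 for *Adh1*, -0.062 for *Aldh1a1*, -0.002 for *Aldh1b1*, 0.011 for *Acss1* and 0.025 for *Acss2* in Acute against Water, to -0.17 for *Adh1*, -0.041 for *Aldh2* and -0.033 for *Aldh1b1* in Chronic against Water, and to 0.02 for *Adh5*, -0.356 for *Adh1*, -0.024 for *Aldh2* and -0.012 for *Acss2* in Chronic against Acute. GC content and length offsets gave 0.016 for *Acss2* in Acute, -0.018 for *Aldh2* and -0.027 for *Aldh1b1* in Chronic against Water, and 0.005 for *Adh5* and 0.002 for *Cat* in Chronic against Acute. *Acss1* in Acute against Water turned to 0.001 with upper quartile scaling, 0.007 with no filter and 0.001 with only the groups compared. *Aldh2* in Chronic against Water turned to -0.004 with ComBat-seq and DESeq2. *Adh5* in Chronic against Acute turned to 0 with DESeq2 and 0.001 with RLE.

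Leaving out 1 mouse gave -0.042 to 0.027 for *Acss1*, -0.27 to 0.098 for *Adh1* and -0.013 to 0.033 for *Adh5* in Acute against Water, and, with no change of sign, 0.053 to 0.213 for *Aldh1a1*, 0.04 to 0.095 for *Aldh1b1*, -0.088 to -0.02 for *Aldh2*, -0.056 to -0.009 for *Cat* and -0.053 to -0.004 for *Acss2*. In Chronic against Water it gave -0.026 to 0.034 for *Acss2*, -0.097 to 0.303 for *Adh1*, -0.006 to 0.03 for *Adh5*, -0.015 to 0.043 for *Aldh1b1*, -0.044 to 0.043 for *Aldh2* and -0.004 to 0.019 for *Aldh3a2*. With no change of sign, it gave -0.172 to -0.016 for *Aldh1a1*, -0.054 to -0.008 for *Cat* and 0.038 to 0.078 for *Acss1* in that comparison. In Chronic against Acute it gave -0.006 to 0.059 for *Acss2*, -0.017 to 0.024 for *Adh5* and -0.025 to 0.024 for *Cat*.

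Mice of the second batch share replicate numbers across groups. The deviations of 16 same-number pairs correlated at -0.346 to 0.338 (median -0.008), with 4 over 0.1. Those of 80 pairs with different numbers correlated at -0.364 to 0.422 (median 0.023), with 26 over 0.1. No pairing by number was seen, which does not exclude one. A replicate block called 0 enzyme genes and 0, 3 and 0 genes in all, and turned *Adh5* in Chronic against Acute to 0.008. The replicate block with GC content and length offsets called 0, 1 and 0 and gave 0.002 for *Acss2* in Acute, -0.016 for *Aldh2* and -0.026 for *Aldh1b1* in Chronic against Water, and 0.015 for *Adh5* and 0.002 for *Cat* in Chronic against Acute.

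Depth limits *Cyp2e1*, at 0 to 8 counts. For *Adh1*, at 2 to 33 counts, counting error and the spread between mice were not separated.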

Other observations

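Among the enzyme genes themselves, *Cat* and *Aldh2* varied most closely together over the 28 mice with batch means removed (r = 0.854, rho 0.829). *Aldh1a1* and *Aldh1b1* also varied together (r = 0.614), and *Aldh1a1* ran opposite to *Adh1* (r = -0.431) and to *Acss2* (r = -0.423). *Acss1* followed *Aldh2* (r = 0.612) and *Adh5* (r = 0.534). These are descriptions over libraries that share their scaling, with no test.

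Among choroid plexus genes looked up singly after the values were seen, *Clic6*, *Kl*, *Folr1* and *Ttr* had r of 0.833, 0.747, 0.606 and 0.459 with *Aldh2*, of 0.807, 0.799, 0.715 and 0.645 with *Adh1*, and of 0.68, 0.605, 0.434 and 0.319 with *Cat*. These were closer in the first batch, at 0.98, 0.959, 0.959 and 0.964 for *Aldh2*, 0.93, 0.931, 0.94 and 0.923 for *Adh1*, and 0.926, 0.921, 0.92 and 0.924 for *Cat*. In the second batch they were 0.808, 0.743, 0.611 and 0.482, then 0.764, 0.785, 0.721 and 0.689, and 0.584, 0.536, 0.363 and 0.284; the difference between batches was not tested. The amygdala neuron genes had no common sign with *Aldh1a1*: r was 0.535 for *Crh*, 0.219 for *Tac2* and 0.076 for *Prkcd* of the central amygdala, and -0.59 for *Slc17a7*, -0.238 for *Neurod6* and 0.192 for *Rspo2* of the basolateral amygdala. The batches differed in sign for *Tac2* (0.567 in the first and -0.069 in the second) and *Neurod6* (-0.511 and 0.103).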
